A study of Mus musculus with 6 samples.

Results

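The genes described here are those of cholesterol synthesis and its SREBP-controlled neighbours, measured in kidneys of 24-month-old mice. They comprise a list of 36 gene symbols of these pathways, picked with earlier results of these data known. A gene was taken if it reached 1 FPKM (mapped fragments per unit of transcript length and library size) in at least 3 of 6 libraries. Of the 36, 35 were measured and all 35 of these met that condition, out of 13696 genes in the tables and 11698 tested; Pnpla3 was not analysed here. Total RNA was sequenced in 3 kidney samples labelled fat-1 knockin and 3 labelled WT, all 24 months old. The nematode fat-1 gene, which mammals lack, encodes an enzyme that makes omega-3 from omega-6 fatty acids; no value of its transcript was used, and the knockin label therefore stands unchecked. The promoter that drives fat-1, the strain, sex, diet and hour of collection were not given in the labels used here, nor was whether each kidney came from its own animal, so the p-values rest on sample-to-sample spread that may be technical.

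Cholesterol is made from acetyl-CoA in the endoplasmic reticulum and cytosol, first along a mevalonate arm to farnesyl diphosphate and then along a sterol arm from squalene. When membrane sterol is low, SCAP carries the SREBP transcription factors to the Golgi for cleavage, and the released factors switch on the genes of the pathway; when sterol is high, INSIG proteins hold SCAP back. SREBP2, from Srebf2, acts mainly on sterol genes and SREBP1, from Srebf1, also on fatty acid synthesis, while polyunsaturated fatty acids are known in liver and cultured cells to lower SREBP1 activity. In the kidney the tubule makes sterol for its own extensive membranes.

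Promoter letters are shown first, for Idi1, which had the widest difference, for the SREBP feedback gene Insig1, for Ebp and for Hmgcs1. Ebp was the only enzyme gene higher at an unadjusted p under 0.05 in limma. Hmgcs1, the most abundant enzyme gene, overlapped between groups. Each sequence is the 250 bases before the RefSeq start site on GRCm38.p6, the assembly of mm10, read 5′ to 3′ on the gene's strand. Capitals mark the CCAAT box, the NF-Y site that SREBPs often need beside them (CCAAT, or ATTGG for the other strand), and the sterol regulatory element (SRE) core TCACNCCAC.
Idi1, chr13:8885356-8885605, plus strand: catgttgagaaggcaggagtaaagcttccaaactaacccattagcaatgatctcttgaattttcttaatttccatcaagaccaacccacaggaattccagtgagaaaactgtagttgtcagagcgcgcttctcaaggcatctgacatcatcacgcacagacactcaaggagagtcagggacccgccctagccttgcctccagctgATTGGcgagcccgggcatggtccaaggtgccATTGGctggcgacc
Insig1, chr5:28071162-28071411, plus strand: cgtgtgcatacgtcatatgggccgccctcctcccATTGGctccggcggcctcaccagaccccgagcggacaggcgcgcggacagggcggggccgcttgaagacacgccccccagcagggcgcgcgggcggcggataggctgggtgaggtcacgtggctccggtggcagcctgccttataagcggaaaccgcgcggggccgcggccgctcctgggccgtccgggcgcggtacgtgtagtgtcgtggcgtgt
Ebp, chrX:8193513-8193762, minus strand: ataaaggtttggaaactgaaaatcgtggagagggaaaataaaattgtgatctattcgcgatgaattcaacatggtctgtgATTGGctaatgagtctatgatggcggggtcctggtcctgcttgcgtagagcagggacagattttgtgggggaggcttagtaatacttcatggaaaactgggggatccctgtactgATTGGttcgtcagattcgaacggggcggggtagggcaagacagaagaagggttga
Hmgcs1, chr13:119690101-119690350, plus strand: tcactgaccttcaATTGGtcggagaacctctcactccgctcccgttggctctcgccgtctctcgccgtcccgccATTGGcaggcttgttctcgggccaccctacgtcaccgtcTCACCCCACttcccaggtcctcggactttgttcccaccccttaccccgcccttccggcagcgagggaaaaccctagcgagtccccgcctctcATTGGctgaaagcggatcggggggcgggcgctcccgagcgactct

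RefSeq windows of 250 bases before to 50 after a start site were found for 31 of the 35 genes, with 40 start sites. Fdps, Fdft1, Sqle and Stard4 had no window and were not searched. The CCAAT box stood on either strand in 26 of the 31 genes, or 83.9%, against 41.1% of the 27025 genes with a window. The GC box GGGCGG, bound by Sp1, was also in 26 of 31, against 38.2% of all genes. Of the 31 genes searched, the exact SRE core TCACNCCAC was found in Hmgcs1 alone, and the palindrome-like form TCACNTGA in Insig2 alone, against 1.44% and 4.78% of all genes. The first 2 shares describe the letters in these windows and were not tested, and motifs that differ by 1 base from the letters searched were not counted. The 27025 genes were not limited to those that reached 1 FPKM in these kidneys, as the 31 were, so the shares set unlike groups of genes side by side.

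**Figure D1:**
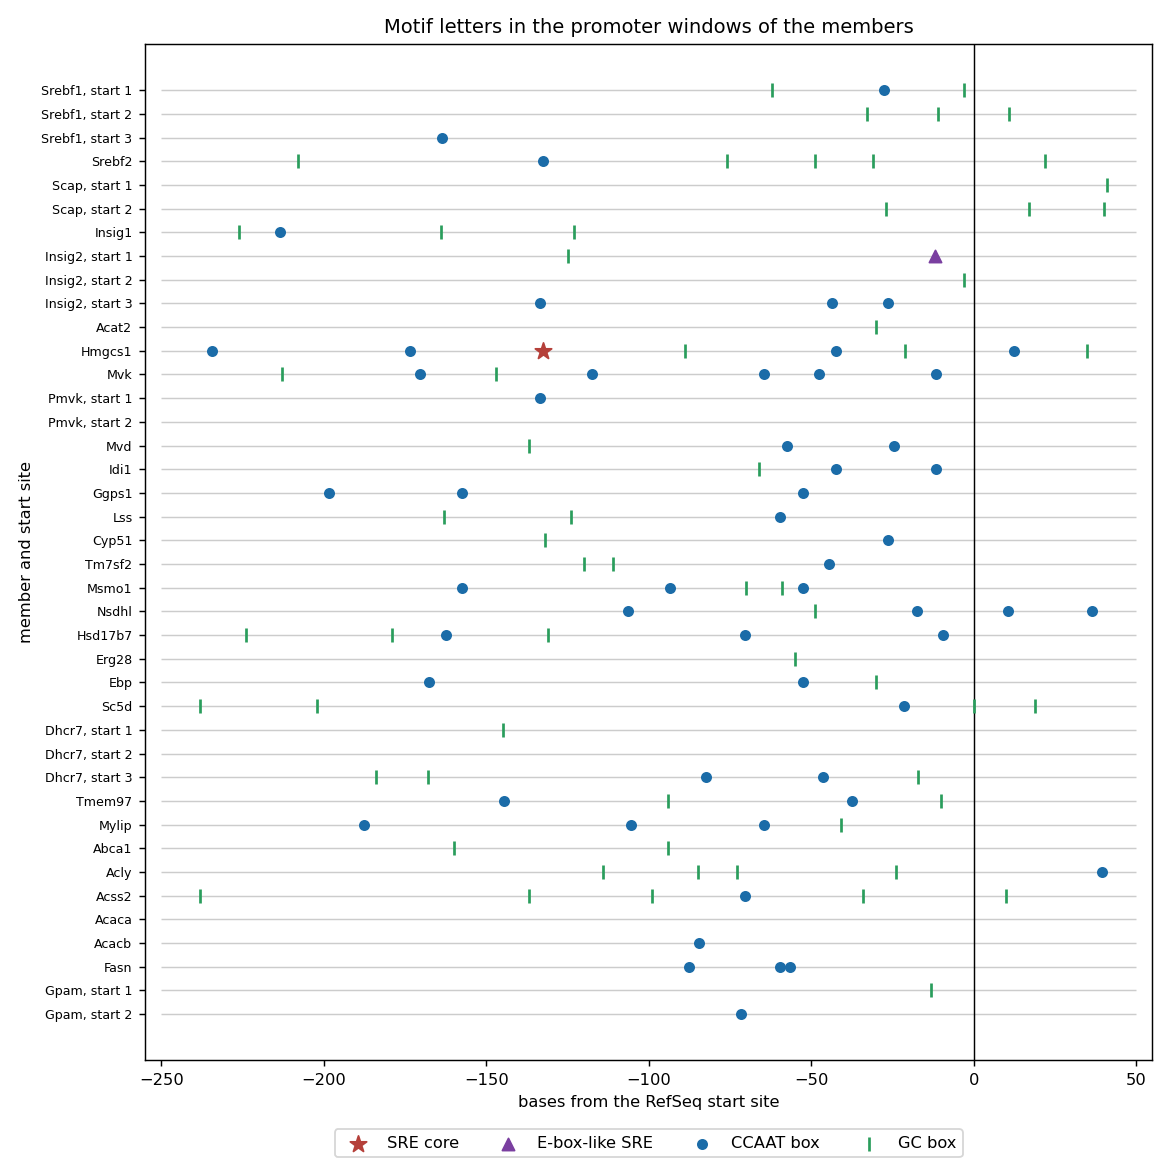
Positions of 4 motifs, searched on both strands, in each window of the 31 genes, in bases from the RefSeq start site (x axis, 0 at the start), with 1 line per start site in pathway order. CCAAT boxes (circles) and GC boxes (green ticks) lie in 26 genes each, and the SRE core (star) lies in Hmgcs1 only. Fdps, Fdft1, Sqle and Stard4 had no window and were not searched.

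The libraries had summed FPKM between 387488 and 421497 in fat-1 and between 391237 and 431081 in WT. Their log2 values correlated across genes at 0.968 to 0.976 within fat-1, at 0.942 to 0.972 within WT and at 0.946 to 0.970 across groups, genes not being independent replicates, and the 4 lowest values all involved WT replicate 1. In the fat-1 libraries 5 macrophage markers summed to between 40.9 and 67.3 FPKM and 5 B and plasma cell markers to between 46.6 and 97.7 FPKM. WT replicate 1 stood apart with 203 FPKM and 338 FPKM for these lists, where the other WT libraries had 37.2 and 40.7 FPKM for the first and 32.97 and 113 FPKM for the second.

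No gene of the pathway passed the test over all genes: 0 of 35 had an adjusted p under 0.05 in limma (lowest 0.118, Idi1), where 0.18% of all tested genes did. At an unadjusted p under 0.05, 10 of 35 (28.6%) were found, against 9.97% of all tested genes. Of the 10, 9 were lower in fat-1 kidneys (25.7% of the 35, against 4.16% of all tested genes) and 1, Ebp, was higher, against 5.8%. In 9 of 35 genes (25.7%) every fat-1 library lay on 1 side of every WT library, against 15.2% of all tested genes. Such genes were below WT in 8 cases (22.9%, against 6.86%) and above it in 1 (against 8.33%). All differences are log2(FPKM + 1) in fat-1 less the same in WT, a scale that shrinks differences of low genes, and FPKM means carry the SD of 3 libraries. In bulk kidney RNA, fewer cells of a type and less RNA per cell cannot be told apart. Over the 35 genes the median difference was -0.17, and over all 11698 tested genes it was 0.01. The list had been picked with earlier results of these data known, so these counts describe it and do not test it.

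The branches differed in their counts, and the difference between branches was not tested. Of 20 sterol synthesis enzyme genes 15 were lower (75%) and 5 higher with a median of -0.37. Over all tested genes 48.8% were lower. The 20 include the scaffold gene Erg28 and Ggps1, which draws farnesyl diphosphate off the pathway. In the 12 genes of the sterol arm 10 were lower, and in the 8 of the mevalonate arm 5 were lower (median -0.23). Of the 6 fatty acid branch genes 3 were lower and 3 higher, with a median of -0.02, and 0 had an unadjusted p under 0.05. The 4 sterol handling genes were also evenly divided, with a median of 0.10 and 0 at that level. With 9.97% of all tested genes at that level, a count of 0 among so few genes cannot be read as a difference. Leaving out WT replicate 2 moved the median of the 20 enzyme genes to -0.25. Leaving out WT replicate 3 or fat-1 replicate 2 left 5 or 4 genes lower at an unadjusted p under 0.05, against 9 with all libraries. The share of all tested genes at that level and lower was also smaller there, at 2.96% and 2.89%, against 4.16% with all libraries. The mevalonate median was -0.11 without WT replicate 3 and 0.01 when each gene was represented by its highest transcript.

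**Figure D2:**
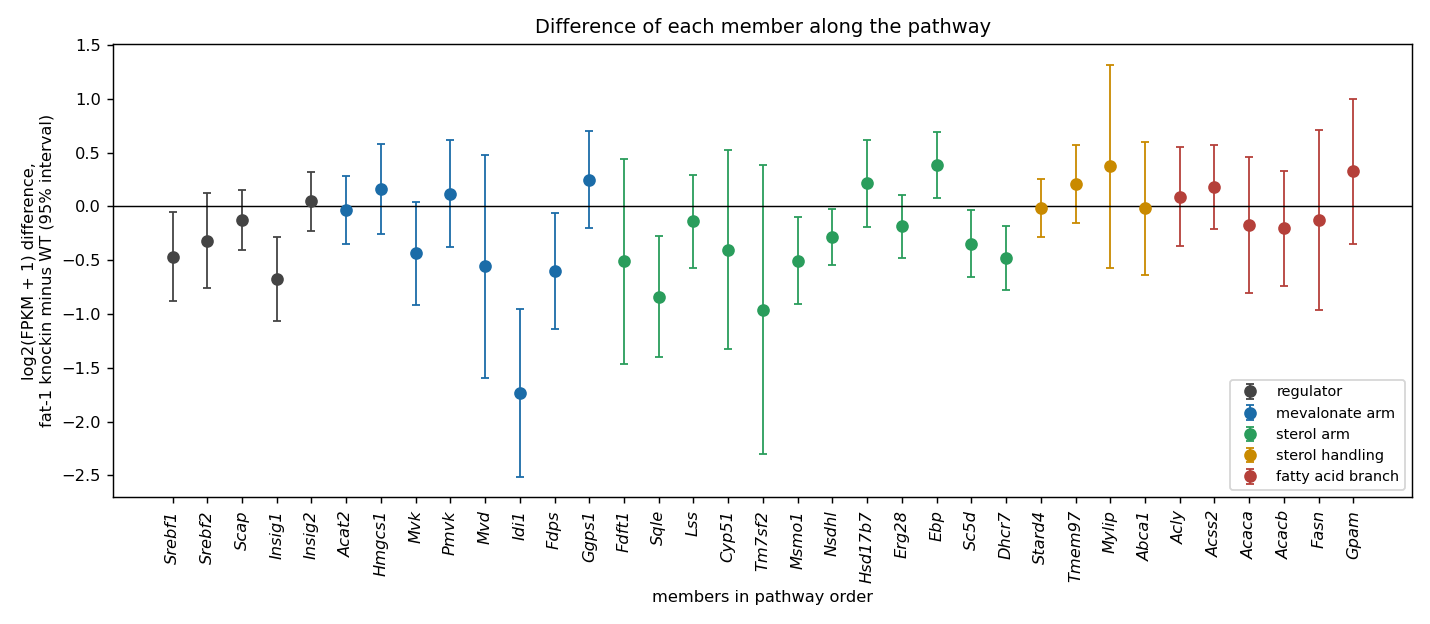
Difference of each of the 35 genes, fat-1 knockin minus WT, on the log2(FPKM + 1) scale (y axis), in pathway order (x axis), as the limma estimate with its 95% interval; colours give the branch. The interval lies below 0 for 9 genes, from Idi1 at -1.73 to Nsdhl at -0.28, and above 0 for Ebp at 0.39; every fatty acid branch interval spans 0.

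Among the regulators, Insig1 and Srebf1 had lower values in all fat-1 libraries. Insig1 (chromosome 5, 28071363 to 28078662, mm10), the ER anchor of SCAP and itself an SREBP target, measured 8.16, 8.35 and 10.8 FPKM in fat-1 replicates 1 to 3, against 17.9, 13.6 and 13.9 FPKM in WT replicates 1 to 3. The groups did not overlap, and WT replicate 1 was the highest of the 6. Its means were 9.11 ± 1.48 FPKM in fat-1 and 15.1 ± 2.39 FPKM in WT, so fat-1 was at 60.2% of WT, a difference of -0.67 ± 0.16 (SE; unadjusted p = 0.00469, adjusted p = 0.192). Insig2 (chromosome 1, 121304353 to 121328024), which holds SCAP in the same way, measured 17.6, 20.9 and 18.4 FPKM in fat-1 against 19.4, 17.5 and 17.9 FPKM in WT. The groups of Insig2 overlapped, with a difference of 0.05 and a 95% interval from -0.22 to 0.32.

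Srebf1 (chromosome 11, 60199089 to 60220604) measured 3.42, 3.15 and 4.04 FPKM in fat-1, against 6.29, 4.29 and 5.32 FPKM in WT. The highest fat-1 library lay just under the lowest WT library, and the difference was -0.47 ± 0.17 (unadjusted p = 0.0331, adjusted p = 0.442). Srebf2 (chromosome 15, 82147266 to 82205376), the sterol-gene factor, measured 9.54, 9.20 and 11.3 FPKM in fat-1, against 16.6, 11.5 and 10.6 FPKM in WT. Here WT replicate 1 stood apart from the other 5 libraries and the groups overlapped (difference -0.32, 95% interval -0.76 to 0.12, or -0.14 without that library). Scap, which carries SREBP to the Golgi (chromosome 9, 110333356 to 110384950), measured 13.3, 12.7 and 14.8 FPKM in fat-1 against 14.4, 16.3 and 14.1 FPKM in WT, with a difference of -0.13 (interval -0.41 to 0.15). In 4 of the 5 regulator genes fat-1 replicate 3 was the highest fat-1 library, and in 4 of 5 WT replicate 1 was the highest WT library, as they were in 48.7% and 49.0% of all tested genes.

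**Figure D3:**
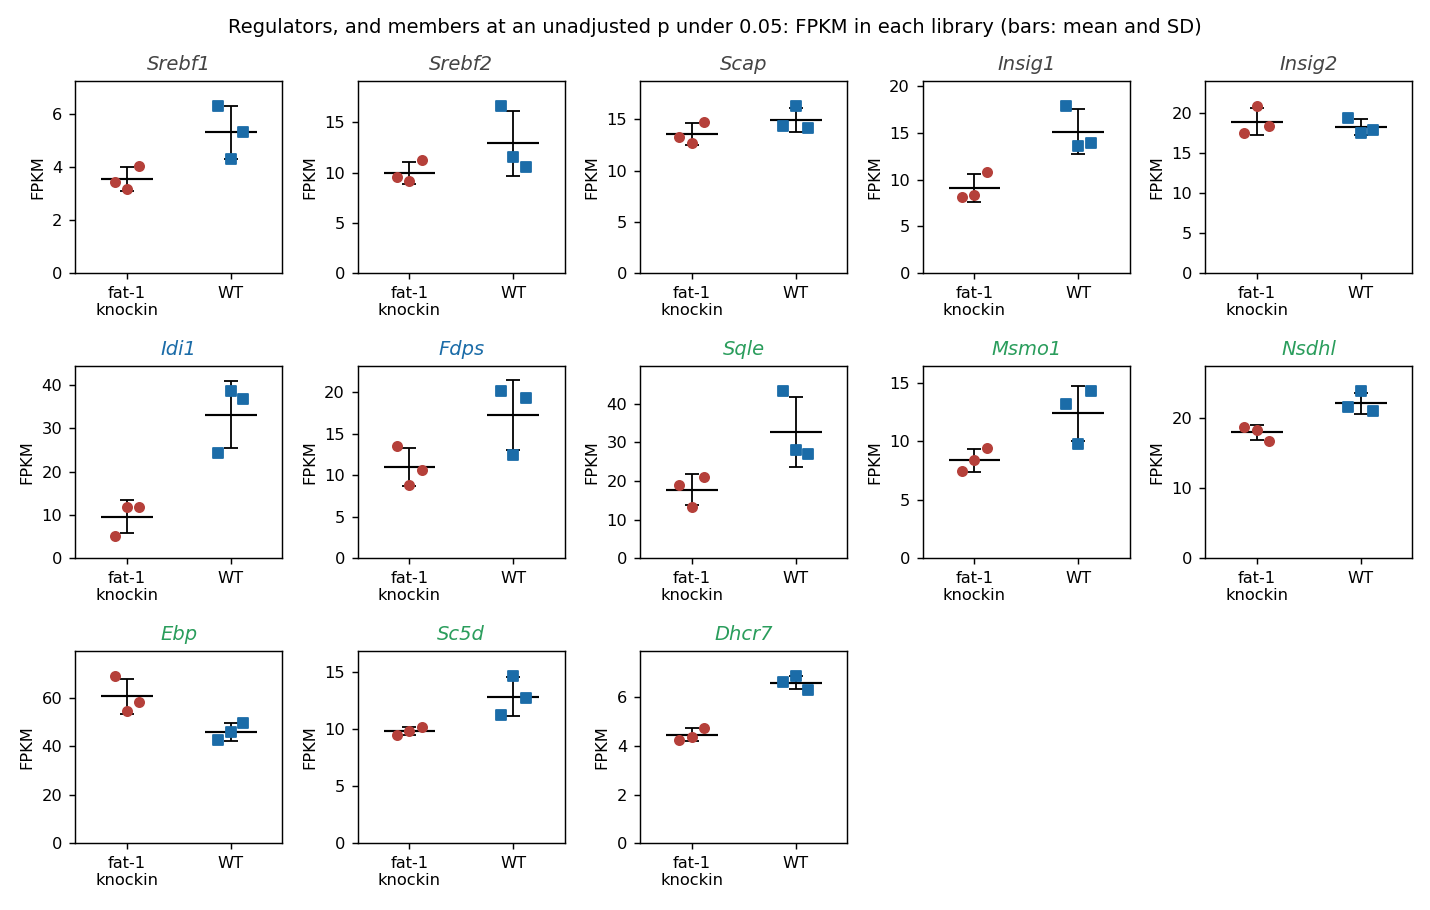
FPKM (y axis, from 0) of the 5 regulators and the 8 other genes at an unadjusted p under 0.05, in each fat-1 knockin library (circles, left) and WT library (squares, right), with mean and SD bars (n = 3). Idi1, Insig1, Sqle, Msmo1, Nsdhl, Sc5d, Dhcr7 and Srebf1 have all fat-1 points below all WT points, Ebp has them above, and Fdps, Srebf2, Scap and Insig2 overlap.

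Along the mevalonate arm the differences varied in sign from gene to gene, and an effect of position along the arm was not tested. Acat2, the cytosolic thiolase that joins the first acetyl units (chromosome 17, 12942890 to 12960747), measured 48.1, 47.8 and 36.8 FPKM in fat-1, against 44.98, 45.9 and 43.98 FPKM in WT. Hmgcs1, the cytosolic HMG-CoA synthase and the most abundant gene of the list (chromosome 13, 119690379 to 119708260), averaged 167 ± 23.4 FPKM in fat-1 and 149.7 ± 25.7 FPKM in WT. Its difference was 0.16, with a 95% interval from -0.26 to 0.58, and that of Acat2 was -0.03 (interval -0.35 to 0.29). The kinase genes Mvk and Pmvk differed by -0.43 (interval -0.91 to 0.05) and 0.12 (interval -0.38 to 0.61).

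Idi1, the isomerase that makes the allylic isoprene unit (chromosome 13, 8885501 to 8892451), had the widest difference of the list. It measured 5.25, 11.8 and 11.9 FPKM in fat-1, against 24.3, 38.6 and 36.8 FPKM in WT. Each WT library was above each fat-1 library, fat-1 replicate 1 being the lowest of all. The means were 9.65 ± 3.81 FPKM in fat-1 and 33.2 ± 7.82 FPKM in WT, fat-1 at 29.04% of WT, with a difference of -1.73 ± 0.33 (SE; 95% interval -2.51 to -0.95; unadjusted p = 0.00132, adjusted p = 0.118). Over 15 alternative settings this difference lay between -2.11 and -1.39 and the adjusted p between 0.0958 and 0.374.

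The enzymes on both sides of Idi1 also had lower means in fat-1, and their groups overlapped. Mvd, the decarboxylase before it, measured 8.73, 10.5 and 14.9 FPKM in fat-1 and 8.29, 19.1 and 29.4 FPKM in WT, so that WT replicate 1 was the lowest library of all (difference -0.56, interval -1.59 to 0.48). Fdps, farnesyl diphosphate synthase (chromosome 3, 89093588 to 89101959), measured 13.5, 8.83 and 10.7 FPKM in fat-1 against 20.1, 12.4 and 19.3 FPKM in WT. The groups of Fdps overlapped through fat-1 replicate 1 and WT replicate 2, and the difference was -0.60 ± 0.23 (unadjusted p = 0.0339, adjusted p = 0.442). Ggps1, which draws farnesyl diphosphate off toward protein prenylation, averaged 7.33 ± 0.442 FPKM in fat-1 and 6.12 ± 1.64 FPKM in WT, a difference of 0.25 (interval -0.20 to 0.70).

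The sterol arm opens with Fdft1, squalene synthase, which averaged 5.37 ± 2.09 FPKM in fat-1 and 8.46 ± 3.97 FPKM in WT; WT replicate 2, at 3.93 FPKM, was the lowest of all 6 (difference -0.51, interval -1.46 to 0.44). Sqle, squalene epoxidase, a rate-controlling step (chromosome 15, 59315081 to 59331192), measured 19.01, 13.3 and 20.9 FPKM in fat-1, against 43.3, 28.1 and 26.9 FPKM in WT. The groups did not overlap and fat-1 was at 54.2% of WT, with a difference of -0.84 ± 0.24 (SE; unadjusted p = 0.00965, adjusted p = 0.263). The consecutive steps Mvd, Idi1, Fdps, Fdft1 and Sqle thus each had a difference of -0.51 or lower, an observation made after the values were seen.

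Ring closure and demethylation follow. Lss, lanosterol synthase, differed by -0.14 (interval -0.57 to 0.30). Cyp51, the lanosterol demethylase, measured 21.3, 22.4 and 55.3 FPKM in fat-1 and 30.2, 50.7 and 41.1 FPKM in WT, so that 1 fat-1 library, replicate 3, was the highest of all and the other two were the lowest. Tm7sf2, a sterol reductase, varied from 0.377 to 3.76 FPKM in fat-1 and from 1.46 to 5.72 FPKM in WT. Neither of these wide-spread genes gives a difference that its interval separates from 0 (-1.33 to 0.52 for Cyp51, -2.30 to 0.38 for Tm7sf2).

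Genes of the demethylation complex had narrower spreads. Msmo1, the methylsterol oxidase (chromosome 8, 64718139 to 64733792), measured 7.43, 8.38 and 9.41 FPKM in fat-1, against 13.2, 9.78 and 14.3 FPKM in WT. Nsdhl, the decarboxylating dehydrogenase (chromosome X, 72918557 to 72958514), measured 18.7, 18.2 and 16.7 FPKM in fat-1, against 21.4, 23.7 and 20.9 FPKM in WT. Both genes were lower in every fat-1 library, by -0.50 ± 0.17 for Msmo1 and -0.28 ± 0.11 for Nsdhl (adjusted p = 0.373 and 0.446). The other 2 genes of that complex overlapped between groups: the ketosteroid reductase Hsd17b7 differed by 0.22 (interval -0.19 to 0.62) and the scaffold gene Erg28 by -0.18 (interval -0.48 to 0.11).

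The last 3 measured steps did not move as 1 block. Ebp, the sterol isomerase (chromosome X, 8185329 to 8193512), measured 68.7, 54.6 and 58.0 FPKM in fat-1, against 42.4, 45.8 and 49.5 FPKM in WT, all fat-1 libraries being above all WT libraries. Its difference of 0.39 ± 0.13 (unadjusted p = 0.0211, adjusted p = 0.367) was the opposite in sign to those of the next enzymes. Sc5d, the sterol desaturase (chromosome 9, 42251595 to 42264256), measured 9.50, 9.82 and 10.2 FPKM in fat-1, against 11.2, 14.6 and 12.7 FPKM in WT, a difference of -0.34 ± 0.13 (adjusted p = 0.442). Dhcr7, which completes cholesterol by reducing 7-dehydrocholesterol (chromosome 7, 143823167 to 143848410), measured 4.25, 4.37 and 4.76 FPKM in fat-1, against 6.64, 6.86 and 6.31 FPKM in WT. The gap between the groups of Dhcr7 was wider than the range within either, with a difference of -0.48 ± 0.13 (unadjusted p = 0.0072, adjusted p = 0.235).

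Genes that move or export sterol overlapped between groups. Stard4, a cytosolic sterol carrier and SREBP target, had nearly equal means, 18.6 ± 0.982 FPKM in fat-1 and 18.8 ± 1.58 FPKM in WT (interval -0.28 to 0.25). Tmem97, an ER protein that SREBP also induces, averaged 14.3 ± 2.72 FPKM in fat-1 and 12.1 ± 0.609 FPKM in WT (interval -0.15 to 0.57). Of the genes driven by the oxysterol receptor LXR, the efflux pump gene Abca1 averaged 3.07 ± 0.967 FPKM in fat-1 and 3.13 ± 1.12 FPKM in WT. Mylip, the LXR-driven ligase that sends lipoprotein receptors to breakdown, measured 9.54, 19.5 and 14.8 FPKM in fat-1 and 18.9, 6.65 and 9.36 FPKM in WT. The ranges of both groups overlapped over most of their width, and the interval ran from -0.58 to 1.32.

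In the fatty acid branch all 6 genes overlapped between groups. Acss2, the acetyl-CoA synthetase and its most abundant gene, averaged 93.0 ± 1.53 FPKM in fat-1 and 82.9 ± 16.5 FPKM in WT, and Acly, ATP citrate lyase, 47.1 ± 10.98 FPKM in fat-1 and 43.7 ± 6.62 FPKM in WT. Fasn, fatty acid synthase, measured 2.31, 2.86 and 6.71 FPKM in fat-1 and 3.95, 5.43 and 3.02 FPKM in WT. The carboxylase genes Acaca and Acacb likewise had fat-1 replicate 3 as the highest fat-1 library, at 4.01 and 4.57 FPKM against 2.86 FPKM or less in the other two. In 5 of 6 genes fat-1 replicate 3 was the highest fat-1 library, and in 5 of 6 WT replicate 2 was the highest WT library, a library that was highest of its group in 22.9% of all tested genes. Gpam, the first acyltransferase of glycerolipid synthesis, was the exception in the fat-1 group, at 10.8, 20.1 and 18.02 FPKM in fat-1 and 13.4, 15.8 and 8.87 FPKM in WT. The branch median over 6 genes lay between -0.25 (without fat-1 replicate 3) and 0.13 (without WT replicate 2). It was also above 0 without fat-1 replicate 1 (0.12) or fat-1 replicate 2 (0.09), so its sign changed with the library left out. Relative to the mean of all 6 libraries, that median was -0.33, -0.21 and 0.37 in fat-1 replicates 1 to 3, against -0.01, 0.18 and -0.13 in WT replicates 1 to 3. For the 20 sterol enzyme genes the same measure was -0.26, -0.17 and -0.14 in fat-1, against 0.16, 0.06 and 0.17 in WT, with no overlap. Over all tested genes it was 0.01, -0.06 and 0.08 in fat-1, against 0.06, -0.04 and -0.04 in WT. As the genes were picked with earlier results of these data known, this separation describes them and was not tested.

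**Figure D4:**
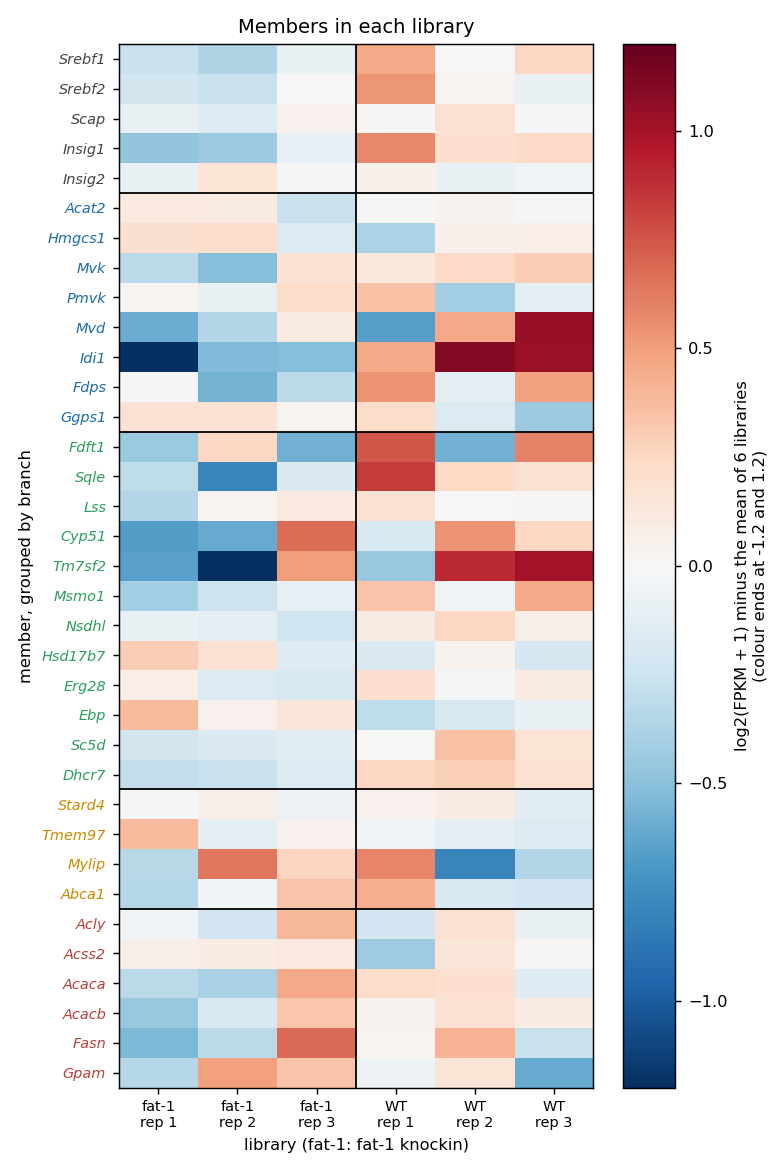
log2(FPKM + 1) of each gene in each library minus that gene's mean over the 6 libraries (colour), with fat-1 knockin libraries left of the line and WT libraries right of it, genes in pathway order and lines between branches. Idi1, Insig1, Sqle and Dhcr7 are blue in all 3 fat-1 libraries, and most fatty acid branch genes are red in fat-1 replicate 3.

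Division of FPKM between transcripts bears on several of these sums. The 35 genes had 75 listed transcripts; 12 genes had 1, and of the 23 with more, 14 had the same highest transcript in all 6 libraries and 9 did not. In fat-1 replicate 3, Dhcr7-202 took 100% of the Dhcr7 FPKM (4.76 FPKM) and Dhcr7-201 none, while Dhcr7-201 took 100% in the other 5 libraries. In that same library Fasn-205 held 76.1% of Fasn and Fdps-201 79.6% of Fdps, where Fdps-201 held between 30.8% and 35.8% in the others. Sqle-201 took all Sqle FPKM in WT replicates 1 and 3 and between 51.8% and 75.2% in fat-1, with 49.8% in WT replicate 2. Srebf1-203 was at 0 FPKM in fat-1 replicate 1 and WT replicate 2 and held between 56.8% and 83.3% of Srebf1 in the other 4, so no division of Srebf1 followed the genotype. Over 6499 tested genes with several transcripts, between 2.43% and 3.72% in each library had a highest transcript that differed from the one shared by the other 5, and fat-1 replicate 3 was at 3.20%. With the highest transcript only, the difference of Dhcr7 was -1.32 ± 0.67 (SE), that of Fdps -1.12 ± 0.50 and that of Srebf1 -0.44 ± 0.84. For the gene sums these were -0.48, -0.60 and -0.47. Their unadjusted p in limma rose to 0.0963, 0.0682 and 0.619, from 0.0072, 0.0339 and 0.0331. The median of the 20 enzyme genes was -0.27, against -0.37 for the gene sums. At this setting 6 of 35 genes were lower at an unadjusted p under 0.05 (3.96% of all tested genes), against 9 for the gene sums (4.16%).

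**Figure D5:**
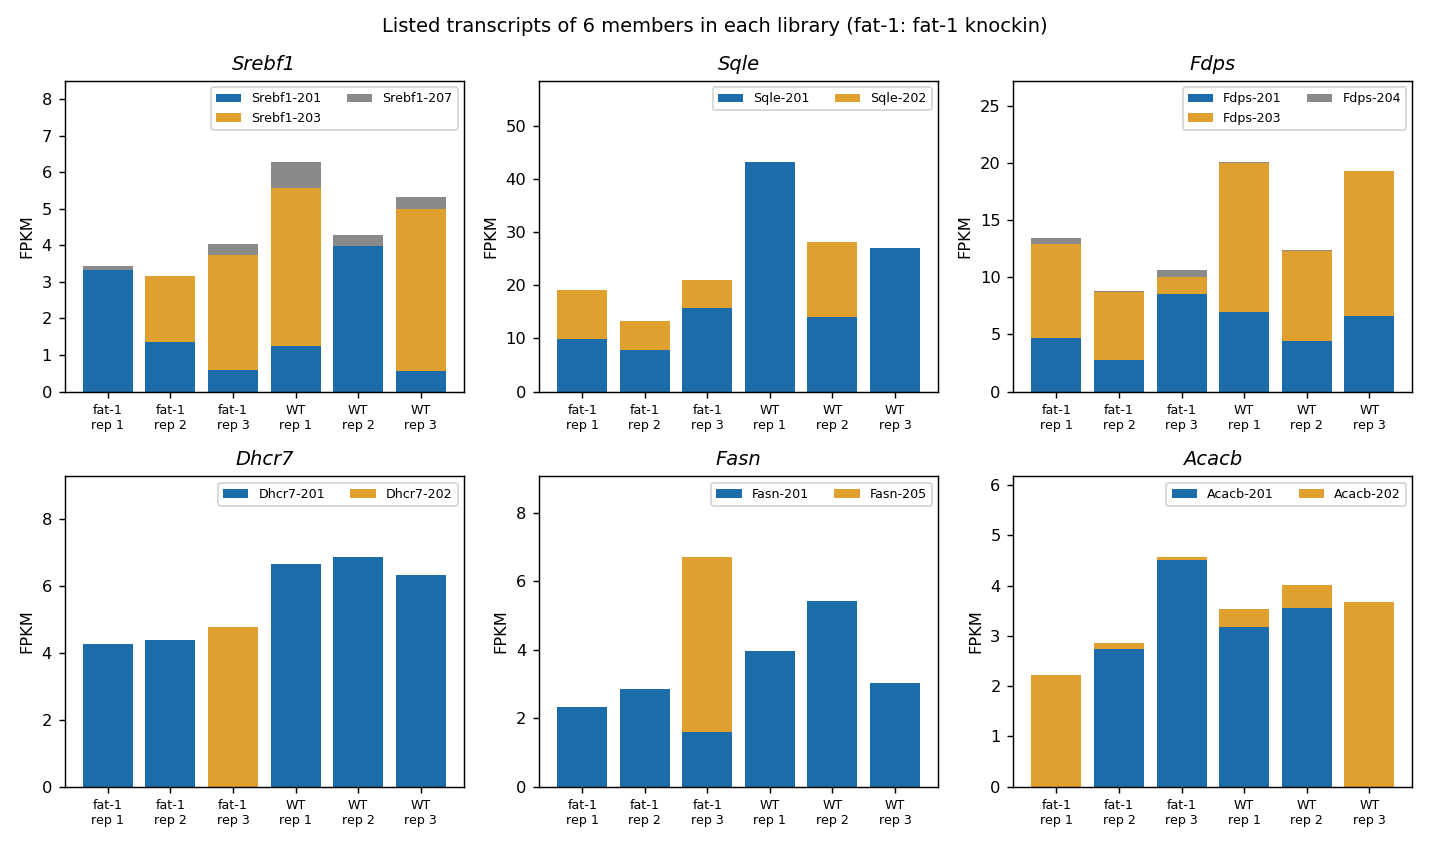
FPKM (y axis, from 0) of the listed transcripts of Srebf1, Sqle, Fdps, Dhcr7, Fasn and Acacb, stacked in each fat-1 knockin library (left 3 bars) and WT library (right 3 bars). The bar of Dhcr7 in fat-1 replicate 3 is entirely Dhcr7-202, and the Fasn bar of that library is 76.1% Fasn-205.

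Other genes of the pathway were read from 5 lists, 56 genes in all, every one tested. In limma 0 of the 56 passed over all genes; 7 (12.5%) had an unadjusted p under 0.05, a share near the 9.97% of all tested genes. Of the 7, 4 were lower (7.14% of the 56, against 4.16% of all tested genes) and 3 higher (against 5.8%), and the median difference of the 56 was 0.03. In the SREBP processing and ER degradation list 2 of 10 were lower and 1 higher at that level. Rnf145, an ER ubiquitin ligase that in mouse liver acts on SCAP (chromosome 11, 44518964 to 44565520), measured 27.1, 29.7 and 28.6 FPKM in fat-1, against 46.5, 40.3 and 41.1 FPKM in WT. All fat-1 libraries of Rnf145 lay below all WT libraries, with a difference of -0.57 ± 0.11 (unadjusted p = 0.00132, adjusted p = 0.118), and Ube2g2, a ubiquitin-conjugating enzyme of ER degradation, differed by -0.58 ± 0.17 (adjusted p = 0.285). In the LXR and oxysterol list 0 of 9, and in the sterol trafficking and esterification list 0 of 12, had an unadjusted p under 0.05. Among 12 isoprenoid side branch genes 0 were lower and 1 was higher at an unadjusted p under 0.05, namely Rabggta, a subunit of a prenyl transferase, at 0.36 ± 0.13 (adjusted p = 0.419).
Of 13 further lipogenic genes 2 were lower and 1 was higher at an unadjusted p under 0.05. Scd2, a fatty acid desaturase gene known as an SREBP target, measured 10.6, 8.86 and 14.8 FPKM in fat-1, against 25.7, 19.7 and 19.6 FPKM in WT. Its groups did not overlap (difference -0.89 ± 0.20, adjusted p = 0.171). Lpin1, the phosphatidate phosphatase of glycerolipid synthesis, was higher in all fat-1 libraries, at 14.9, 17.5 and 20.3 FPKM against 11.9, 13.8 and 13.5 FPKM in WT (0.40 ± 0.14, adjusted p = 0.413).

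Markers of several kidney cells differed beside these genes. For the tissue itself, 7 of 7 proximal tubule markers were measured, at 1497 to 2249 FPKM summed in fat-1 and 1669 to 2119 FPKM in WT. The summed level of 5 endothelial markers ran from 132 to 180.4 FPKM in fat-1 and from 59.7 to 72.4 FPKM in WT, and that of 4 podocyte markers from 81.0 to 99.5 FPKM in fat-1 and from 57.3 to 66.6 FPKM in WT. Lower sums were found for 4 intercalated cell markers (52.0 to 59.0 FPKM in fat-1, 87.3 to 91.6 FPKM in WT) and 4 distal convoluted tubule markers (165 to 258 FPKM in fat-1, 298 to 447 FPKM in WT). Sums overlapped between groups for 4 thick ascending limb markers (752 to 1631 FPKM in fat-1, 971 to 1262 FPKM in WT) and 4 principal cell markers (95.7 to 171 FPKM in fat-1, 126 to 139 FPKM in WT). The sum of 5 erythrocyte markers was widely spread, from 7.13 to 534 FPKM in fat-1 and from 131 to 235 FPKM in WT, and 5 of 6 hepatocyte markers summed to 598 to 780 FPKM in fat-1 and 464 to 797 FPKM in WT. The part of these cell types in the differences was not tested. For adrenal cortex, a gland beside the kidney rich in sterol synthesis, of 7 markers 1 was measured, Star, at 0.332 to 0.507 FPKM in fat-1 and 0.21 to 0.497 FPKM in WT, and the other 6 were not analysed here. For fat tissue 2 of 7 markers were measured; Adipoq was between 0 and 1.84 FPKM in fat-1 and between 0 and 0.706 FPKM in WT, and Cfd reached 4.07 FPKM in fat-1 replicate 2 and 4.93 FPKM in WT replicate 3. With fat-1 replicate 3 and WT replicate 1 both left out, 9 of 35 genes were lower at an unadjusted p under 0.05 in limma. That is the same count as with all 6 libraries, but not the same genes. Fdps, Nsdhl, Msmo1 and Srebf1 then had an unadjusted p of 0.168, 0.132, 0.0566 and 0.0558, and other genes took their places. The share over all tested genes was 5.10%, against 4.16% with all 6.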

How the data were processed

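Kidney RNA of 6 samples was measured, 3 fat-1 knockin and 3 WT, grouped by the genotype label. The authors' deposited tables give FPKM per transcript, per the file headers, 1 table per sample and 27486 transcripts each. The submitters' processing notes name mm10, DESeq2 1.20.0, HISAT2 2.0.5 and featureCounts 1.5.0-p3, with no step given for each; no label or header names what computed the FPKM. Strand use in counting is not given either, so reads of Hmgcs1, Mvd, Lss and Acss2 cannot be told apart from those of annotated genes over them on the other strand. Nor can those of Fdps be told apart from Gm43738 on its own strand. Other members had overlaps too. Examples on the other strand are Idi1 (Gm48574, 323 bases), Scap (5830462I19Rik, 3383 bases) and Fdft1 (Ctsb, 774 bases). Examples on the same strand are Srebf2 (Gm49502, 2110 bases), Acaca (Gm37391, 2318 bases) and Tm7sf2 (Vps51, 532 bases).

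FPKM were summed per gene identifier (13696 genes). The 11698 genes that reached 1 FPKM in 3 or more libraries were fitted in limma 3.58.1 (R 4.3.3) on log2(FPKM + 1), with intensity trend and robust variance, no covariates and no rescaling, and p-values were Benjamini-Hochberg adjusted over all tested genes (threshold 0.05). The fit was also run on simulated data in which genes varied independently, so shared differences between libraries were not included. The outcome is not reported here, and how often differences of the size described above would be found is not stated. Low FPKM times transcript length lay within 0.05 of a whole multiple of a fitted step for 20.5% to 25.5% of values, where an even spread gives 10%, so whole reads were not recovered; depth is unknown, and intervals or floors that need it were not computed. No library pair shared an identical non-zero gene value (0 genes).

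The members and lists were chosen with earlier results of these data known. Per-library values are given for the regulators and for genes at an unadjusted p under 0.05 or with groups that did not overlap, and for other members chosen after their values were seen; from each related list at most 2 genes with the smallest p were named. Alternatives covered filter, pseudocount, scaling, variance options, the highest transcript and each replicate left out; leaving out fat-1 replicate 3 and WT replicate 1 together was chosen after seeing the data. Promoter windows are RefSeq's on GRCm38.p6. Joins and plots used matplotlib 3.10.9, pandas 2.3.3 and Python 3.11.15.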

Additional observations from a re-analysis of the deposited data

How the results depend on the processing

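No gene of the list passed an adjusted p of 0.05 in limma under the 15 alternatives run (0 of 35, or 0 of the 34 left when 1 FPKM was required in all 6 libraries; between 5 and 10 at an unadjusted p under 0.05). Nor did a gene of the related lists (0 of 56, or 0 of 53 under that filter; between 4 and 9 unadjusted), which were not run with the highest transcript only. Over all genes 21 passed, 14 of them higher in fat-1. That count was 4 with no filter, 10 with median-of-ratios factors, 3 with no intensity trend and 52 with equal FPKM sums (41 higher), and between 0 and 26 when 1 replicate was left out. It was 0 in limma when fat-1 replicate 1 was left out (1018 genes at an unadjusted p under 0.05), likewise for fat-1 replicate 3 (1070) and WT replicate 3 (840), and 0 with fat-1 replicate 3 and WT replicate 1 left out together (1461). The median of the 20 sterol enzyme genes lay between -0.37 and -0.25 when 1 replicate was left out and was -0.27 with the highest transcript only; the genes lower at an unadjusted p under 0.05 numbered between 4 and 9 when 1 replicate was left out. Of the 13 genes given with values in every library for the regulators and the low p-values, 12 kept their sign under all 15 alternatives, and Insig2 lay between -0.021 (without fat-1 replicate 2) and 0.11 when replicates were left out. The causes of these shifts were not tested. No paired analysis was possible because the labels give no replicate numbers shared by the groups; the numbers 1 to 3 used here follow accession order and only name the samples. Depth is unknown, so what it limits could not be stated.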
